A study of Mus musculus with 14 samples.

Results

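Serotonin receptor genes and Maoa, which encodes the serotonin-degrading enzyme monoamine oxidase A, were followed in the medial prefrontal cortex (mPFC) of mice exposed to repeated social defeat stress. The genes were 9 receptor genes (Htr1a, Htr1b, Htr1f, Htr2a, Htr2c, Htr3a, Htr4, Htr5a and Htr7) and Maoa, taken through the RefSeq transcripts that the array assigns to its probes. These 10 genes had 13 of the 55681 probes on the array, which name 20887 genes in all. Htr2a and Htr4 were called higher in susceptible than in naive mice. The Htr4 call rested on a dim probe, which passed the filter on dim probes only through defeated mice, and was lost without that filter. Of the 10 genes 7 could be tested. None of these passed between susceptible and resilient mice or, in the main fit (no block or covariate), between resilient and naive mice. Maoa was lower in every susceptible mouse than in every naive mouse without passing the test.

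All 14 mice were wild-type C57BL/6 animals, and no transgene was involved. Susceptible mice (6 animals) and resilient mice (3 animals) had been through repeated social defeat, in which a mouse meets an aggressive mouse again and again, and the labels class them by behaviour. Naive mice (5 animals) were transferred between cages instead. At 4 h after the last session the mice were perfused with ice-cold buffer, mPFC tissue was taken with a 1.5 mm punch, and the RNA of every mouse (35 ng, labelled with the dye Cy3) went onto an Agilent array of its own, so each value is 1 animal. Sex and age were not given in the sources used here.

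Serotonin reaches the cortex through axons of neurons in the raphe nuclei of the brainstem, so that cortical tissue holds its receptors and its breakdown enzymes rather than the enzymes of its synthesis. The receptors of the 5-HT1 and 5-HT5 families act through Gi proteins and lower cyclic AMP, the 5-HT2 family acts through Gq and phospholipase C, 5-HT4, 5-HT6 and 5-HT7 receptors raise cyclic AMP through Gs, and 5-HT3 receptors are ion channels. In the prefrontal cortex the 5-HT2A receptor is known from pyramidal neurons and is the main target of classical hallucinogens, and the 5-HT3A subunit marks a class of interneurons. Monoamine oxidase A breaks down serotonin and noradrenaline at the outer mitochondrial membrane.

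Values are log2 signals relative to the 75th percentile of the same array, so that 0 is that percentile and a difference of 1 is a doubling of the signal. Since probes differ in how strongly they bind, levels were compared between mice for 1 probe and never between probes. The arrays lay on 3 slides. Each of the slides 1 and 2 carried susceptible, resilient and naive mice, whereas slide 3, read on a separate day, carried 2 susceptible and 2 naive mice. Arrays of defeated mice were always in row 2 of a slide and naive arrays always in row 1, and the effects of row and of defeat cannot be told apart. Array brightness, the 75th percentile itself, was 8.22 ± 0.61 in susceptible mice (SD, n = 6), 8.03 ± 0.12 in resilient mice (n = 3) and 7.82 ± 0.71 in naive mice (n = 5). On each array 48.0% to 65.4% of the spots were well above background and 0 were saturated. Precision is limited by how many arrays there were.

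The 2 promoters printed here belong to the members whose susceptible and naive values did not overlap and for which RefSeq promoter sequence was at hand (assembly GRCm38.p6, 250 bases before to 50 bases after the gene's start, 5′ to 3′ along the gene). Htr2a lies on the plus strand of chr14:74640624-74640923, and Maoa on the plus strand of chrX:16619448-16619747. Capitals mark matches to 6 motifs searched on both strands, which were the glucocorticoid receptor half-site AGAACA, the GC box GGGCGG, the EGR site GCGNGGGCG, the cyclic AMP response element TGACGTCA, the TATA box with letters TATAAA, and the E-box CACGTG. The GC box can overlap the EGR site.
Htr2a: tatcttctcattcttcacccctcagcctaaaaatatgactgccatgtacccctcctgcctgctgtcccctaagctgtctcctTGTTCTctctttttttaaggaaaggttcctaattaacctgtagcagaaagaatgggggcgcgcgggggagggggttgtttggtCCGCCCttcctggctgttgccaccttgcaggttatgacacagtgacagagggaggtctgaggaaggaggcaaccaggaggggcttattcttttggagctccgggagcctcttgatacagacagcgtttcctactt
Maoa: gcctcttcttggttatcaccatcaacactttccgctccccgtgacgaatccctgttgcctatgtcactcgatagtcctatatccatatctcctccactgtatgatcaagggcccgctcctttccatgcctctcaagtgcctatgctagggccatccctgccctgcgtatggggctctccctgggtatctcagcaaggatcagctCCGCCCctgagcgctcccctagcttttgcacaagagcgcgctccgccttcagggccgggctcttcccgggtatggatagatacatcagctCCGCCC
In the Htr2a promoter AGAACA matched on the reverse strand at position -168 and GGGCGG on the reverse strand at position -85, counted from the gene's start. In the Maoa promoter GGGCGG matched on the reverse strand at positions -46 and 45. Of 32851 promoters of this length, 19% held AGAACA and 35.7% held GGGCGG, so these matches are common and are given as a description. RefSeq promoters were matched for 8 of the 10 members, not for Htr3a and Htr4. Htr2a and Maoa had 6 and 14 CpG dinucleotides and a GC content of 52% and 57.7%, beside medians of 7 CpG dinucleotides and 52.7% over all promoters, while the Htr7 promoter had 46 CpG dinucleotides, 81% GC and the only match to GCGNGGGCG among the 8, a motif held by 5.55% of all promoters.

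Htr2a, the gene of the Gq-coupled 5-HT2A receptor, was called higher in susceptible than in naive mice here and in 29 of 33 alternative analyses. Its log2 relative signal was 1.51, 1.57, 1.34, 1.29, 1.40 and 0.92 in the 6 susceptible mice, 1.55, 1.09 and 1.43 in the 3 resilient mice, and 0.47, 0.19, 0.11, 0.45 and 0.91 in the 5 naive mice. Every defeated mouse lay above every naive mouse, with susceptible mouse 6 (0.92) just above naive mouse 5 (0.91), both on slide 3. Among all genes tested, 8.32% had all resilient mice above all naive mice and 2.01% had all defeated mice above them. The susceptible mean of 1.34 ± 0.23 (SD, n = 6) exceeded the naive mean of 0.43 ± 0.31 (SD, n = 5) by 0.91 ± 0.15 on the log2 scale (SE, limma adjusted p = 0.0175 over 14453 genes), a 1.88-fold difference with a 95% confidence interval of 1.49 to 2.36. The resilient mean of 1.35 ± 0.24 (SD, n = 3) lay above the naive mean by a similar 0.93 ± 0.19, but the limma adjusted p was 0.0655 with these fewer mice. With slide as a block the resilient difference passed the test (0.89 ± 0.20, limma adjusted p = 0.0369, beside 3.54% of all genes called by that fit), and so did the susceptible one (0.89 ± 0.15, limma adjusted p = 0.00849, beside 15.3%). With replicate number as a block the resilient difference was 0.99 ± 0.17 (limma adjusted p = 0.0261), beside 5.03% of all genes called by that fit. The resilient difference passed in 8 of 32 alternative analyses, these block fits included. Of the 14 fits that each left out 1 mouse, 2 called it, and the limma adjusted p reached 0.355 without resilient mouse 1. The susceptible call was lost, at a limma adjusted p of 0.0510, only when susceptible mouse 1 was left out among the fits that each left out 1 mouse.

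**Figure D1:**
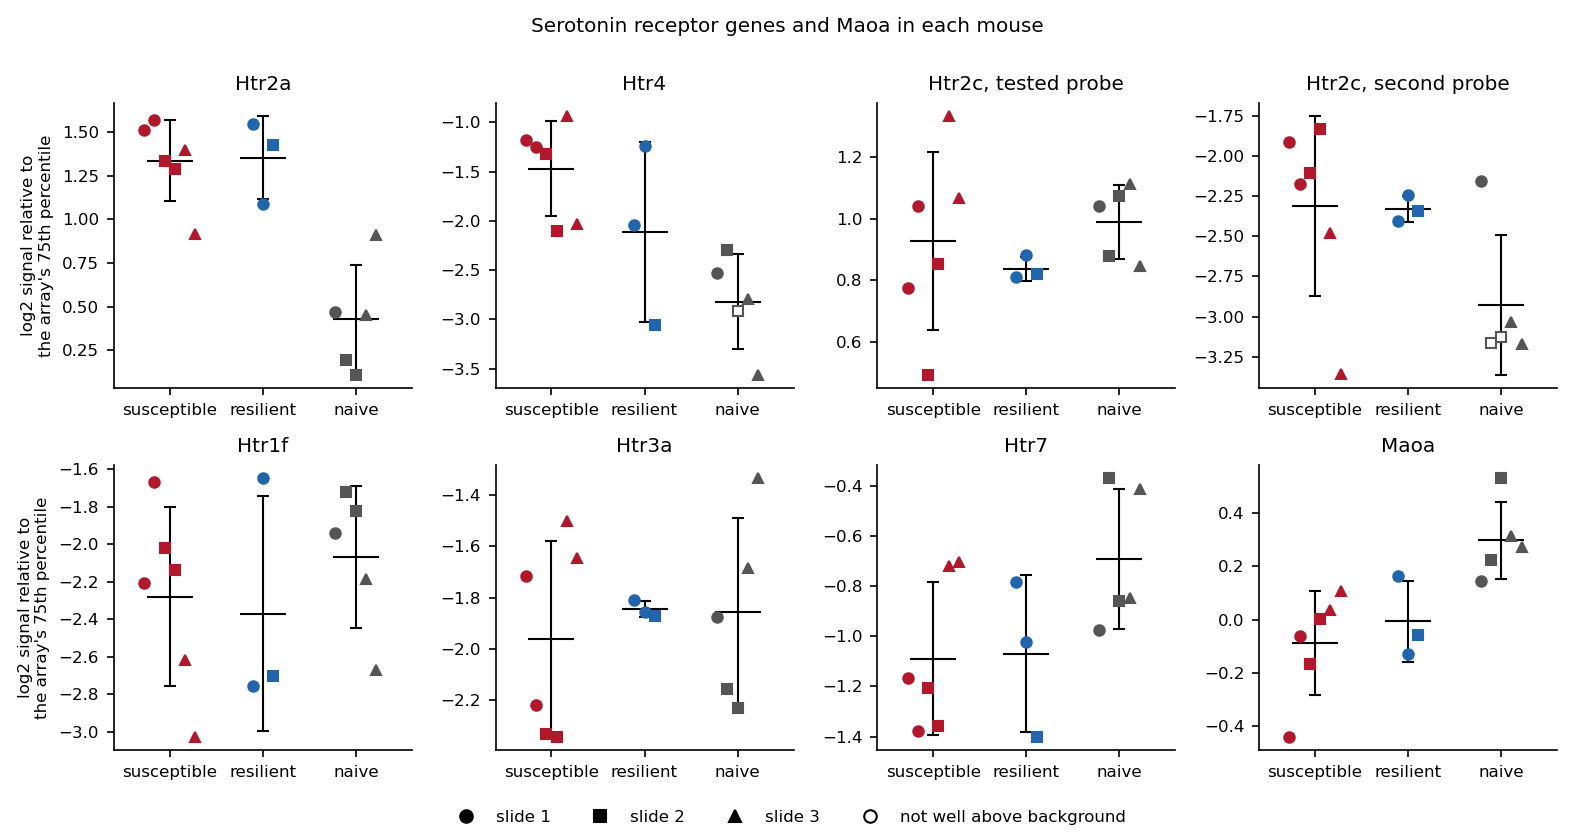
Log2 signal relative to the array's 75th percentile for the 8 probes that passed the filter on dim probes, with 1 point per mouse, in susceptible (6), resilient (3) and naive (5) mice. Black marks are the group mean and SD, point shapes give the slide, open points were not well above background, and each panel has its own vertical scale. Susceptible and naive points do not overlap for Htr2a, Htr4 and Maoa.

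Htr4 encodes a Gs-coupled receptor that raises cyclic AMP. Its tested probe was dim, at -1.18, -1.25, -1.32, -2.10, -0.93 and -2.03 in susceptible mice, -2.04, -1.24 and -3.05 in resilient mice, and -2.53, -2.30, -2.92, -2.80 and -3.57 in naive mice. All 6 susceptible mice lay above all naive mice, while the resilient mice spread across both, with 2 of 3 above the naive range. The probe was well above background on 13 of 14 arrays, the exception being naive mouse 3, so that it passed the filter on dim probes only through the susceptible and resilient mice, where it was brighter. The susceptible mean of -1.47 ± 0.48 (SD, n = 6) was higher than the naive mean of -2.82 ± 0.48 (SD, n = 5) by 1.35 ± 0.31 (SE, limma adjusted p = 0.0412), a 2.55-fold difference with a 95% confidence interval of 1.60 to 4.07. The resilient mean of -2.11 ± 0.91 (SD, n = 3) differed from the naive mean by 0.71 ± 0.38 (limma adjusted p = 0.307). The Htr4 call was less stable than that of Htr2a. Without the filter its limma adjusted p was 0.0888. With normexp background correction the susceptible difference was 0.52 (limma adjusted p = 0.142), and of the 14 fits that each left out 1 mouse, 3 called the gene, those without susceptible mouse 6, resilient mouse 2 or resilient mouse 3, with limma adjusted p-values from 0.0250 to 0.0917 over the 14. A second Htr4 probe was well above background in 1 of 6 susceptible, 0 of 3 resilient and 0 of 5 naive mice and was not tested.

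Maoa lay lower in defeated mice by a smaller amount that missed the threshold. Its log2 relative signal was -0.44, -0.06, -0.17, 0.00, 0.03 and 0.11 in susceptible mice, 0.16, -0.13 and -0.06 in resilient mice, and 0.14, 0.23, 0.53, 0.32 and 0.27 in naive mice. All 6 susceptible mice and 2 of the 3 resilient mice were below the lowest naive mouse. The susceptible mean of -0.09 ± 0.20 (SD, n = 6) differed from the naive mean of 0.30 ± 0.15 (SD, n = 5) by -0.39 ± 0.11 (SE, limma adjusted p = 0.0683), and the resilient mean of -0.01 ± 0.15 (SD, n = 3) differed from it by -0.31 ± 0.13 (adjusted p = 0.220). With slide as a block the susceptible difference of -0.36 ± 0.10 passed the test (limma adjusted p = 0.0353), in a fit that called 15.3% of all genes, and the resilient difference of -0.22 ± 0.13 did not (adjusted p = 0.315). Without susceptible mouse 6 the susceptible difference was -0.43 and also passed (limma adjusted p = 0.0458). Of the 14 fits that each left out 1 mouse, only that 1 called Maoa, and the limma adjusted p reached 0.143. Of 33 alternative analyses, 5 called the susceptible difference.

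Htr7, the gene of another Gs-coupled receptor, had values of -1.17, -1.38, -1.21, -1.36, -0.72 and -0.70 in susceptible mice, -0.78, -1.02 and -1.40 in resilient mice, and -0.97, -0.37, -0.86, -0.85 and -0.41 in naive mice. The groups overlapped, with 4 of 6 susceptible mice and 2 of 3 resilient mice below every naive mouse. The difference was -0.40 ± 0.17 between susceptible and naive mice (SE, limma adjusted p = 0.173) and -0.38 ± 0.20 between resilient and naive mice (adjusted p = 0.314). The low susceptible values were those of slides 1 and 2, and both susceptible mice of slide 3 lay inside the naive range.

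Htr2c, the other 5-HT2 receptor gene measured here, had 2 probes that passed the filter, with susceptible minus naive differences of opposite sign. The brighter, tested probe read 0.78, 1.04, 0.49, 0.85, 1.34 and 1.07 in susceptible mice, 0.81, 0.88 and 0.82 in resilient mice, and 1.04, 0.88, 1.07, 1.11 and 0.85 in naive mice, and the groups overlapped throughout. Its difference was -0.06 ± 0.13 between susceptible and naive mice (SE, limma adjusted p = 0.794), with a 95% confidence interval of -0.34 to 0.21. The second probe read -1.92, -2.17, -2.10, -1.83, -2.48 and -3.36 in susceptible mice, -2.40, -2.24 and -2.34 in resilient mice, and -2.16, -3.16, -3.12, -3.03 and -3.17 in naive mice, where it was well above background on 3 of 5 arrays, so that it passed the filter only through the susceptible and resilient mice, where it read higher. In a fit of every probe on its own, which called 1.23% of the probes between susceptible and naive mice, it differed by 0.62 ± 0.25 between susceptible and naive mice (limma adjusted p = 0.173) and by 0.60 ± 0.31 between resilient and naive mice (adjusted p = 0.309). Which Htr2c transcripts each probe detects was not analysed here.

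Htr3a and Htr1f overlapped between the groups, and in susceptible and naive mice their values went with the slide. Htr3a, the ion channel subunit, ranged from -2.35 to -1.50 in susceptible mice (median -1.97), from -1.87 to -1.81 in resilient mice (median -1.86) and from -2.23 to -1.33 in naive mice (median -1.88). The 4 arrays of slide 3 read -1.50 and -1.65 in susceptible mice 5 and 6 and -1.69 and -1.33 in naive mice 4 and 5, which were the highest values in both groups. Htr1f, whose receptor is Gi-coupled and a target of triptans, read -2.61 and -3.03 in susceptible mice 5 and 6 and -2.18 and -2.67 in naive mice 4 and 5, the lowest values of both groups. The 10 mice of the other slides had Htr1f values between -2.76 in resilient mouse 1 and -1.65 in resilient mouse 2. Between susceptible and naive mice the difference was -0.10 ± 0.19 for Htr3a (limma adjusted p = 0.775) and -0.21 ± 0.26 for Htr1f (adjusted p = 0.651), and between resilient and naive mice it was 0.01 ± 0.23 for Htr3a (adjusted p = 0.985) and -0.30 ± 0.31 for Htr1f (adjusted p = 0.627). Within groups the values correlated with array brightness at r = 0.89 for Htr3a and r = -0.68 for Htr1f. With brightness as a covariate the susceptible minus naive difference was -0.31 ± 0.11 for Htr3a (limma adjusted p = 0.0728). For Htr1f it was then 0.01 ± 0.21 (limma adjusted p = 0.990).

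The remaining receptor genes, all Gi-coupled, were too dim to test. Htr1a, whose receptor inhibits raphe neurons as well as cortical neurons, exceeded background clearly in 3 of 6 susceptible, 0 of 3 resilient and 1 of 5 naive mice. Htr1b, a receptor of axon terminals, was well above background in 2 of 6 susceptible, 2 of 3 resilient and 0 of 5 naive mice. Htr5a passed that mark in 1 susceptible mouse and in 0 resilient and 0 naive mice. Of the 3 Htr1a arrays above background among susceptible mice, 2 were the bright arrays of slide 3 (-2.89 and -2.59) and the remaining one was susceptible mouse 1 (-3.36), while naive mouse 5 of slide 3 gave the naive value (-3.67). The last of the Htr2c probes was well above background on 2 of 14 arrays, those of resilient mouse 1 and naive mouse 3.

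Of the 10 genes, 7 passed the filter on dim probes and were tested with all 14453 genes. Between susceptible and naive mice 2 of these 7 were called, both higher, beside 2.6% of all genes tested. Of these, Htr4 entered the test only through the defeated mice, where its probe was brighter. The genes were also chosen with earlier results of these data known, so the count is given as a description. Between resilient and naive mice 0 of 7 were called, beside 0.152% of all genes. Both comparisons share the naive mice. With all 9 defeated mice set against the naive mice, the mean of the susceptible and resilient means being taken, Htr2a (0.92 ± 0.15, limma adjusted p = 0.00860, higher in 9 of 9 mice than in every naive mouse) and Htr4 (1.03 ± 0.30, adjusted p = 0.0468, 8 of 9) were called, beside 8.32% of all genes. The Maoa difference there was -0.35 ± 0.10 and missed the threshold (limma adjusted p = 0.0540), with 8 of 9 mice below every naive mouse. Susceptible and naive values did not overlap for Htr2a and Htr4 (higher) and Maoa (lower), a pattern that 2.49% of all genes showed in the higher and 1.64% in the lower direction.

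**Figure D2:**
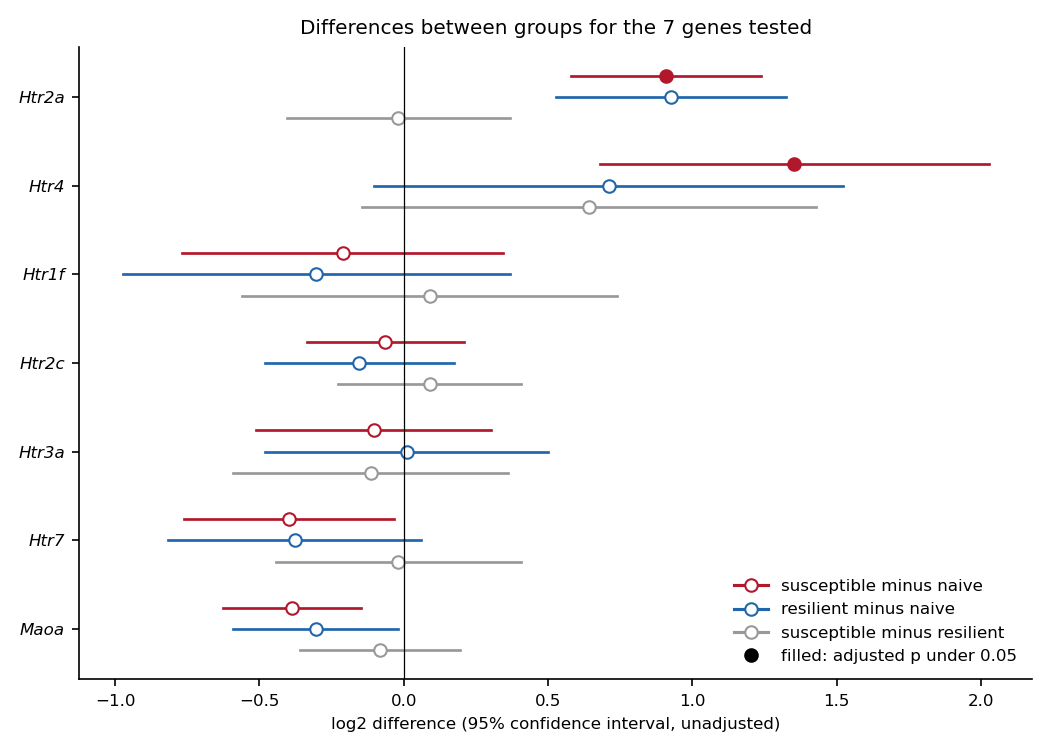
Log2 differences with unadjusted 95% confidence intervals from the limma fit for the 7 tested genes, susceptible minus naive (red), resilient minus naive (blue) and susceptible minus resilient (grey). Filled points have a Benjamini-Hochberg adjusted p under 0.05 over 14453 genes, which holds for Htr2a and Htr4 between susceptible and naive mice.

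Susceptible and resilient mice were set against each other to ask whether the behavioural class of a defeated mouse went with its receptor expression. None of the 7 genes passed, beside 0% of all genes tested, and all limma adjusted p-values were 1.00. For Htr2a the susceptible minus resilient difference was -0.02 ± 0.18 (SE), with a 95% confidence interval of -0.40 to 0.37, an interval that leaves out a difference as large as that from the naive mice. For Htr4 the difference was 0.64 ± 0.37 with an interval of -0.14 to 1.43, which holds 0 and also a difference as large as that between susceptible and naive mice (1.35). For Maoa it was -0.08 ± 0.13 (interval -0.36 to 0.20) and for Htr7 -0.02 ± 0.20 (interval -0.44 to 0.41). With 3 resilient mice these intervals do not show that the classes are alike.

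The differences were then computed from the arrays of 1 slide at a time. Slide 1 held 1 naive mouse, so both of its differences rest on that mouse and their SE on the spread of the susceptible and resilient mice. Htr2a was higher in susceptible than in naive mice by 1.07 ± 0.23 on slide 1, 1.16 ± 0.20 on slide 2 and 0.47 ± 0.22 on slide 3 (SE), and higher in resilient than in naive mice by 0.85 ± 0.23 on slide 1 and 1.28 ± 0.24 on slide 2. Htr4 differed between susceptible and naive mice by 1.31 ± 0.33, 0.90 ± 0.33 and 1.70 ± 0.42 on slides 1 to 3, and between resilient and naive mice by 0.89 ± 0.33 on slide 1 but by -0.45 ± 0.40 on slide 2, which held 1 resilient mouse. For Maoa the susceptible minus naive differences were -0.40 ± 0.24, -0.46 ± 0.21 and -0.22 ± 0.10. For Htr7 they were -0.30 ± 0.20, -0.67 ± 0.24 and -0.08 ± 0.17. The susceptible difference had the same sign on the 3 slides for each of these 4 genes. It also kept its sign for Htr3a (-0.09, -0.15 and -0.06), whose groups overlapped. The slides split the same mice that gave the differences above, so a shared sign is no separate support. The share of all genes with a shared sign was not computed. No gene of the 7 passed limma's adjusted threshold within a slide, where at most 5 arrays were fitted.

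**Figure D3:**
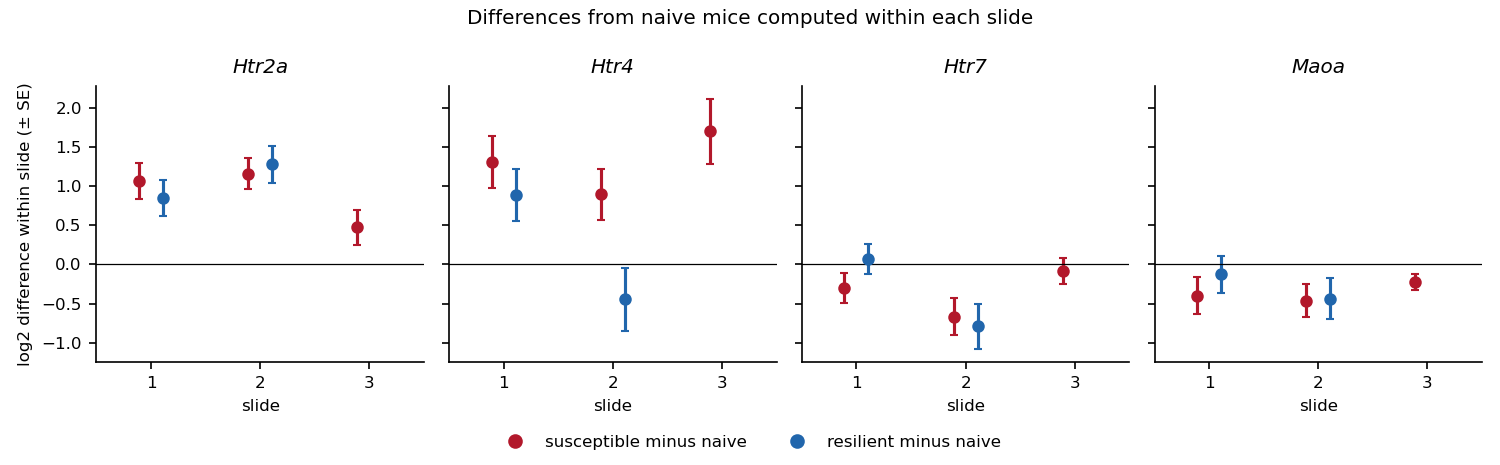
Log2 differences within each slide with SE for Htr2a, Htr4, Htr7 and Maoa, susceptible minus naive (red, 3 slides) and resilient minus naive (blue, slides 1 and 2, since slide 3 held no resilient mouse). Susceptible differences keep 1 sign per gene, as they also do for Htr3a (not drawn), and the resilient Htr4 difference changes sign between slides 1 and 2.

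Genes around the receptors were taken from 6 lists of 101 genes, of which 100 were on the array and 84 were tested. Between susceptible and naive mice 5 of the 84 rose and none fell, beside 1.64% and 0.962% of all genes, and between resilient and naive mice 0 were called. These 5 calls were fragile, since 8 of the 14 fits that left out 1 mouse (naive 2, 3 or 4 or susceptible 1 to 5) gave 0 of them and 2 fits gave as many or more, 5 without naive mouse 5 and 8 without susceptible mouse 6. With slide as a block 13 were called, beside 15.3% of all genes. Of the genes of serotonin synthesis, transport and breakdown, 14 of 20 were tested and 0 called, with a median susceptible minus naive difference of -0.08 beside 0.02 over all genes. The 2 with the smallest p were Aldh1a1, an aldehyde dehydrogenase (-0.69 ± 0.25, limma adjusted p = 0.124), and Ddc, which makes serotonin from its hydroxylated precursor (-0.44 ± 0.18, adjusted p = 0.156). Maob, the other monoamine oxidase gene, differed by -0.24 ± 0.13 (adjusted p = 0.266). Of 5 further serotonin receptor genes only Htr6 was tested (0.12 ± 0.17, adjusted p = 0.701), and Htr3b and Htr5b were well above background on 0 of 14 arrays.

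On the signalling side, 2 of 24 tested genes of the Gi, Gs, cyclic AMP and GIRK list rose in susceptible mice. Adcy9, an adenylyl cyclase, averaged 3.87 in susceptible, 4.04 in resilient and 3.27 in naive mice (0.60 ± 0.14 for susceptible minus naive, limma adjusted p = 0.0404), and Prkar1a, a regulatory subunit of protein kinase A, averaged 3.71, 3.73 and 3.33 in the same order (0.38 ± 0.10, adjusted p = 0.0497). The median of this list was 0.09. Of the 14 tested genes of Gq coupling and phospholipase C, the pathway of Htr2a, 0 were called between susceptible and naive mice and the median was -0.10. Rgs2, a regulator that shortens Gq signalling, differed by 0.45 ± 0.15 (adjusted p = 0.0962) and rose in all defeated mice against naive mice (0.55 ± 0.14, limma adjusted p = 0.0311). Also called only in that larger comparison were the GIRK channel genes Kcnj3 (0.50 ± 0.15, adjusted p = 0.0490) and Kcnj9 (0.42 ± 0.11, adjusted p = 0.0328), which were higher, and the adenylyl cyclase gene Adcy5 (-0.40 ± 0.11, adjusted p = 0.0446), which was lower. That comparison called 8.32% of all genes and 11 of the 84 list genes, a count of 3 to 14 with 1 mouse left out (3 without naive mouse 3 or resilient mouse 1, 4 without naive mouse 2). Of the 14 such fits, 3 called Kcnj3, 4 called Adcy5, 9 called Kcnj9 and 9 called Rgs2.

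Among receptor-associated proteins and RNA editing enzymes, 3 of 17 tested genes rose in susceptible mice and the median was 0.06. Mpdz, a scaffold protein that binds the tail of the 5-HT2C receptor, was higher by 0.69 ± 0.16 (limma adjusted p = 0.0412). Ric3, a chaperone of nicotinic and 5-HT3 receptors, was higher by 0.68 ± 0.16 (adjusted p = 0.0412). Adar, an enzyme that edits RNA, Htr2c transcripts included, was higher by 0.50 ± 0.12 (adjusted p = 0.0412). The resilient minus naive differences of these genes were 0.79 ± 0.19 for Mpdz, 0.74 ± 0.19 for Ric3 and 0.50 ± 0.14 for Adar, none of them called. Of 14 tested transcriptional regulators described for the receptor genes or Maoa, 0 were called between susceptible and naive mice (median -0.08). Nr3c1, the glucocorticoid receptor, differed by -0.40 ± 0.11 (limma adjusted p = 0.0595) and fell in all defeated mice against naive mice (-0.43 ± 0.10, adjusted p = 0.0268), as did Gli1, a transcription factor of Hedgehog signalling (-0.58 ± 0.13, adjusted p = 0.0208), 2 of 14 regulators in the comparison that called 8.32% of all genes.

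**Figure D4:**
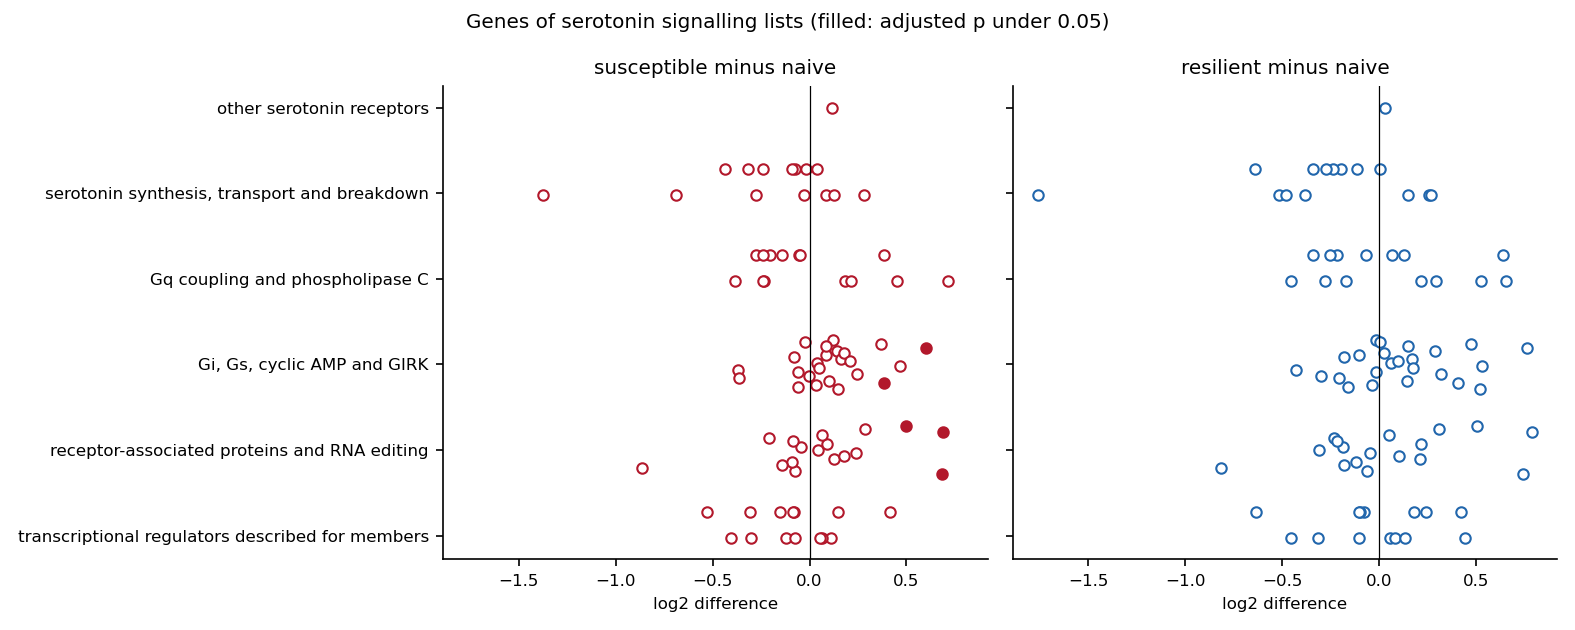
Log2 differences of the tested genes of the 6 serotonin signalling lists, 1 point per gene, susceptible minus naive (left) and resilient minus naive (right), with vertical spread within a list only for legibility. Filled points passed an adjusted p of 0.05, which 5 genes did on the left (Adcy9, Prkar1a, Adar, Mpdz and Ric3) and 0 on the right.

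Markers of the cells that the punch could hold were read beside these values, since in bulk tissue fewer cells of a type and less RNA per cell cannot be told apart. The cortical label was matched by excitatory neuron markers such as Slc17a7 and Tbr1, well above background on 14 of 14 arrays, with a summed log2 level of 5.47 to 5.95 in susceptible, 5.53 to 5.89 in resilient and 5.69 to 5.93 in naive mice, and 0 of 11 called. Pan-neuronal markers (0 of 7 called) spanned 8.44 to 8.94 in susceptible, 8.80 to 8.88 in resilient and 8.57 to 8.77 in naive mice, with median differences of 0.22 for susceptible minus naive (6 of 7 positive) and 0.26 for resilient minus naive (7 of 7 positive). All resilient mice lay above all naive mice in that sum. Inhibitory neuron markers (0 of 9 called) spanned 6.47 to 6.90 in susceptible, 6.46 to 7.03 in resilient and 6.42 to 6.62 in naive mice. Their median differences were 0.15 for susceptible minus naive and 0.22 for resilient minus naive (7 of 9 positive in each). Markers of interneurons of the Htr3a type (0 of 9 called) spanned 7.96 to 8.55, 7.88 to 8.46 and 8.07 to 8.49 in the same order. Their median differences were 0.17 for susceptible minus naive (8 of 9 positive) and 0.31 for resilient minus naive (7 of 9 positive). Of the 6 raphe markers, the defining genes Tph2 and Slc6a4, and also Gata3, were well above background on 0 of 14 arrays. Fev and Gata2 were well above background on 14 of 14 arrays and Slc18a2 on 13 of 14.

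Some markers of other cell types passed the test between susceptible and naive mice. Astrocyte markers had summed levels of 8.82 to 9.17 in susceptible, 8.85 to 9.07 in resilient and 9.32 to 9.71 in naive mice, and 3 of 9 fell between susceptible and naive mice (Fabp7, Aldoc and S100b). Between resilient and naive mice 1 of 9 fell, beside 0.152% of all genes called, and the median was -0.43 (0 of 9 positive). Meningeal fibroblast markers had medians of -1.06 for susceptible minus naive and -1.21 for resilient minus naive differences with 0 of 8 called, and summed levels of 2.49 to 4.65 in susceptible, 2.73 to 4.73 in resilient and 3.81 to 5.15 in naive mice. Striatal markers, which would show a punch that reached beyond the cortex, had summed levels of 4.78 to 4.86 in susceptible, 4.40 to 5.04 in resilient and 4.32 to 4.70 in naive mice, and 1 of 9 fell in susceptible mice (Adora2a), whereas 7 of the 9 susceptible minus naive differences were positive, with a median of 0.22 beside 0.02 over all genes. Of 6 endothelial markers 1 fell in susceptible mice (Slco1a4), with summed levels of 5.01 to 5.52 in susceptible, 4.79 to 5.71 in resilient and 5.11 to 5.66 in naive mice. Of 6 blood leukocyte markers 2 rose (S100a8 and S100a9), with summed levels of 4.78 to 5.94, 5.62 to 5.78 and 5.19 to 6.08 in the same order. Averaged over the 6 genes instead, their log2 levels were -0.32 to 1.09, -0.33 to 0.16 and -1.32 to -0.59. Their median difference was 0.28 for susceptible minus naive and 0.17 for resilient minus naive (5 of 6 positive in each). S100a8 was well above background in 5 of 6 susceptible, 3 of 3 resilient and 0 of 5 naive mice and S100a9 in 6 of 6, 3 of 3 and 4 of 5, so both passed the filter only through defeated mice. Erythroid markers (0 of 5 called) reached 2.62 to 6.01 in susceptible, 2.94 to 5.52 in resilient and 1.92 to 3.93 in naive mice. No tested marker of deep layer neurons (9 genes), oligodendrocytes (7), their precursors (5), microglia (7), pericytes and smooth muscle (5) or choroid plexus (5) was called between susceptible and naive mice. Among these, oligodendrocyte markers had a median susceptible minus naive difference of -0.55 (1 of 7 positive) and pericyte and smooth muscle markers one of -0.52 (1 of 5 positive), beside -0.40 for the astrocyte markers (0 of 9 positive). The summed oligodendrocyte levels were 5.34 to 6.00 in susceptible, 5.28 to 6.39 in resilient and 5.55 to 7.32 in naive mice, and those of pericytes and smooth muscle were 1.98 to 4.00, 2.26 to 3.77 and 3.06 to 4.58 in the same order. The part of these differences in the values of Htr2a, Htr4 and Maoa was not tested.

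Htr2a and Maoa ran in opposite directions across the mice. Over the 14 arrays, which share the groups and slides, their Pearson correlation was -0.74, and -0.30 once each group's mean was removed. The genes whose pattern over the 14 arrays was most like that of Htr2a, among 12841 genes well above background on every array, were Ippk (r = 0.97), St8sia3 (r = 0.96), Ets2 (r = 0.95) and Stoml1 (r = 0.94), and within groups these correlations were 0.72 to 0.89. For Maoa they were Rnf31, Vps9d1 and Kif22 (r = 0.91 each), Rnpepl1 and Tspan7 (r = 0.90 each), and 0.77 to 0.86 within groups.

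**Figure D5:**
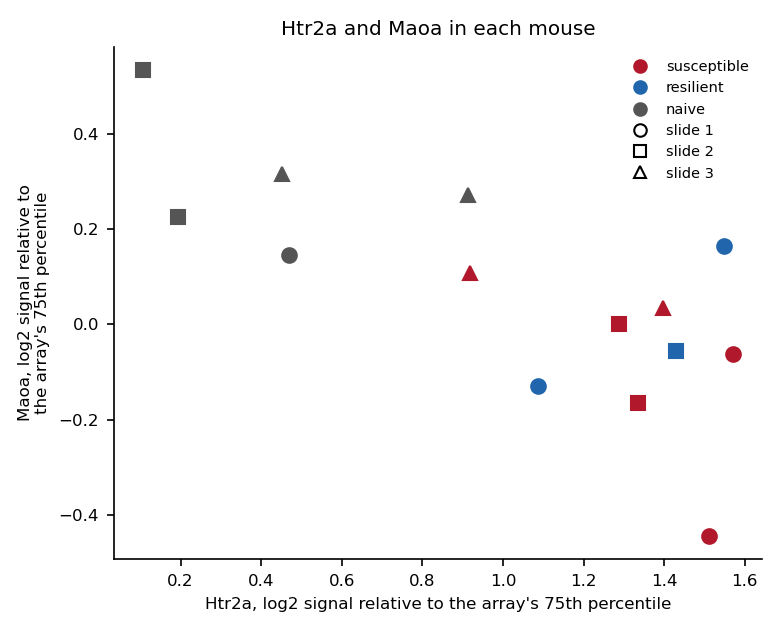
Log2 relative signal of Htr2a (horizontal) against that of Maoa (vertical) in each of the 14 mice, with colours for susceptible, resilient and naive mice and shapes for the slide. Naive mice lie at the upper left, with Htr2a at or below 0.91 and Maoa at or above 0.14, and 8 of the 9 defeated mice lie at higher Htr2a and lower Maoa than any naive mouse. This separation repeats the group differences given above for each gene, and the share of gene pairs that show it was not computed.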

How the data were processed

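Each of the 14 mice gave mPFC tissue for 1 array. The scanner tables were written by Agilent Feature Extraction 11.0.1.1 (mouse build mm9) and, per the file headers, give the background-subtracted intensity of each spot on a linear scale, which was not scaled across arrays before it was deposited. The authors' own value table is in log2 units. Against the log2 processed signal its columns had r = 1 and an offset of 1 constant per array that puts the 75th percentile at 0, and their medians ran from -3.09 to -2.74. It served as an alternative.

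Control spots (3671 of 62976) and 104 to 184 outlier spots per array were dropped. From log2 of the processed signal, the 75th percentile of the array's non-control spots was subtracted, and replicate spots were averaged. A probe was tested if every array of some group showed it well above background. Names came from RefSeq genes of GRCm38.p6 through transcript accessions (27509 probes named, 28172 unnamed), and that assembly was used for nothing else but promoters. A gene was tested through its probe of highest mean signal. One fit held all arrays in 3 groups with no covariate (limma 3.58.1, R 4.3.3), with Benjamini-Hochberg adjustment over 14453 genes and calls at adjusted p under 0.05. Only the fit was tested on simulated data, which had independent noise and no slide, row or brightness effects. A list's summed level is log2 of the sum of its tested genes' relative signals.

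The genes and lists were chosen with earlier results of these data known. All members were named with every probe, list genes where they passed in any comparison (otherwise the 2 with the smallest p between susceptible and naive mice), and the 5 genes most correlated with Htr2a and with Maoa, except 1 that is not reported here. Marker genes, Maob, Htr3b and Htr5b were added beside the results they bear on. Deviations from the group means correlated, for mice of the same replicate number, at -0.37 to 0.71 between susceptible and naive mice (5 pairs), -0.38 to 0.39 between susceptible and resilient mice (3 pairs) and 0.11 to 0.32 between resilient and naive mice (3 pairs). Every pair exceeded 0.1 in the last alone, so its blocked value is given beside the Htr2a result, although the labels tie no number to a shared batch. Alternatives were normalisation, background correction, filters, probe rules, the authors' table, blocks of slide, scan day or replicate number, single slides, array weights, eBayes settings, groups fitted, another threshold and each mouse left out. Array brightness as a covariate and the percentile over probes were added after the data were seen. The labels mention 2 experiments without assigning mice to them, so experiment was not analysed.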

Additional observations from a re-analysis of the deposited data

Results flagged for a closer look

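In naive mouse 1 the second Htr2c probe read -2.16, far from the next naive value of -3.03, a gap of 0.859 of the group's whole range against a critical share of 0.71 for 5 mice. It was the only such value among the 16 sets of susceptible or naive values examined over the 8 probes that passed the filter, and chance alone flags about 1 set in 20. The tested Htr2c probe read 1.04 in the same mouse, inside the naive range.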

How the results depend on the processing

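Of the 7 tested genes, 2 were called between susceptible and naive mice. Htr2a alone (1 gene) was called with normexp, without a filter on dim probes, with probes required on all 14 arrays (where Htr4 was not tested) and with each probe tested on its own. The count was 0 within slide 1, 2 or 3 and 4 (Htr2a, Htr4, Htr7 and Maoa) with array brightness as a covariate. Leaving out 1 mouse gave 0 (without susceptible mouse 1) to 3 (without susceptible mouse 6), and 27 to 869 calls over all genes in place of 376. Between resilient and naive mice the count was 1 (Htr2a) in place of 0 with slide, scan day or brightness in the fit, with array weights, with trend and robust eBayes and at an adjusted p under 0.10, and 0 to 1 with 1 mouse left out (1 without naive mouse 5 or susceptible mouse 6). For all defeated against naive mice it was 1 in place of 2 with normexp, no filter, each probe on its own or slide as a block, 0 within slide 1 or 2, 4 with brightness, and 1 to 3 with 1 mouse left out. Slide as a block called 511 genes of all between resilient and naive mice, in place of 22. With scan day, brightness, array weights or trend and robust eBayes the share of all genes called is not given here. The counts under those settings, 4 genes with brightness included, are thus no result about the 7 genes.

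With replicate number as a block, although the numbers do not pair susceptible with naive mice, 3 genes were called between susceptible and naive mice, 1 between resilient and naive mice, and 1711 over all genes for susceptible against naive. Slide as a block raised that count over all genes to 2213. Between susceptible and resilient mice 0 of the 7 genes were called in any alternative, with 1 gene of all called without resilient mouse 1 and 0 otherwise. In the main fit 0 of the 7 had an unadjusted p under 0.05. Within slide 2, which held 1 resilient mouse, the susceptible minus resilient difference was 1.34 for Htr4 and 0.63 for Htr1f. Neither Htr2a nor Htr4 changed sign under any alternative in the comparisons that called it, while the resilient minus naive difference of Htr4 was -0.45 within slide 2. The cause of these changes was not tested. Dim probes limit Htr4, Htr1a, Htr1b and Htr5a, and 3 resilient mice limit their comparisons.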
